A study of Mus musculus with 32 samples.

Results

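Polyamines are made and broken down by a short chain of enzymes, and 7 genes for these enzymes were followed in mouse quadriceps: Odc1, Amd1, Amd2, Srm, Sms, Smox and Sat1. They were chosen by name, and each gene's values were summed over its gene identifier, so that 7 of 53801 gene identifiers were members. All 7 were among the 12817 genes tested, and all 7 reached 1 TPM (a length-scaled share of a library's transcripts) in 32 of 32 libraries.

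The 32 libraries were RNA-seq of snap-frozen quadriceps cryosections from 8 groups of 4 mice: WT or Col6a2-/-, female or male, 5 or 25 weeks old. Col6a2-/- mice were homozygous for the allele Col6a2tm1(KOMP)Vlcg, made in C57BL/6N and crossed for 5 generations to C57BL/6J, and WT mice came from the same heterozygous breeders. No treatment, Cre line or transgene is named for any group. Collagen VI, to which Col6a2 contributes a chain, is a component of the matrix around muscle fibres, and the study's title concerns its effect on TGFβ availability in skeletal muscle.

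Polyamine synthesis starts with ornithine decarboxylase (Odc1), which makes putrescine. S-adenosylmethionine decarboxylase (Amd1 and its copy Amd2) supplies the aminopropyl groups that spermidine synthase (Srm) and spermine synthase (Sms) add to make spermidine and then spermine; spermine oxidase (Smox) turns spermine back into spermidine, and spermidine/spermine acetyltransferase (Sat1) marks polyamines for export or oxidation. In rodent skeletal muscle, Odc1 and Amd1 are known as androgen-responsive genes, and Smox is known for falling in wasting muscle.

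Facts of the series that touch these genes were checked first. Col6a2 lay between 6.60 and 51.2 TPM in the 16 WT libraries and between 0 and 0.171 TPM in the 16 Col6a2-/- libraries. All 8 muscle fibre markers were present in every group, with summed levels from 21700 to 38640 TPM over the libraries. Mitochondrial genes took 31.9 to 46.9% and Rn7s genes 20.8 to 30.5% of a library's TPM, and 10399 to 12877 genes reached 1 TPM. The library with 12877 such genes, Col6a2-/- female 2 at 5 weeks, also held its group's highest Odc1 and Sms, and differences of these genes at 5 weeks that rest on it are given with and without it. In whole muscle, fewer cells of a type and less RNA per cell cannot be told apart.

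Amd1 and Amd2 could not be read as separate genes. Amd1 (ENSMUSG00000075232) lies on the minus strand at chr10:40287458-40302186 of GRCm38, and Amd2 (ENSMUSG00000063953) on the minus strand at chr10:35708675-35711892, where its transcript of 3218 bases fills the whole gene span. Over 3204 aligned positions their transcripts matched at 3190 and differed at 14, an identity of 99.6%. Of the 3055 windows of 150 bases in the Amd1 transcript, the length of 1 read, 1890 (61.9%) also occurred in Amd2, and 66.8% occurred in some other gene. Amd2 stood at 24.2 to 27.3% of the Amd1 level in the 32 libraries, with a median of 25.6%, and 5 Amd pseudogenes together stood at 16.7 to 20.7%. The ratio was thus nearly fixed while Amd1 itself ranged from 19.3 to 297 TPM, and Amd1 and Amd2 are counted below as members but not as independent ones.

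The start regions of the copies are shown because they mark where the shared sequence begins. The pieces come from RefSeq promoter windows on GRCm38.p6, run 5′ to 3′ on the minus strand from 70 bases before the annotated start to 30 after it, and lie at chr10:40302159-40302258 for Amd1 and chr10:35711862-35711961 for Amd2. Capitals mark the part of the shared run that falls in each piece.
Amd1: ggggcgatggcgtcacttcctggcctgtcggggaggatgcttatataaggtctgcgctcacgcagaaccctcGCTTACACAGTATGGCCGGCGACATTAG
Amd2: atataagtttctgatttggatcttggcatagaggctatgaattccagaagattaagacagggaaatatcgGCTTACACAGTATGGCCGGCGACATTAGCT
The run shared by both windows was 48 bases long and began at base 3 after the Amd1 start and at base 1 after the Amd2 start. It reached the end of the Amd1 window, 50 bases after the start, so the window and not the transcripts set its length. Upstream of the run the sequences differed.

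**Figure D1:**
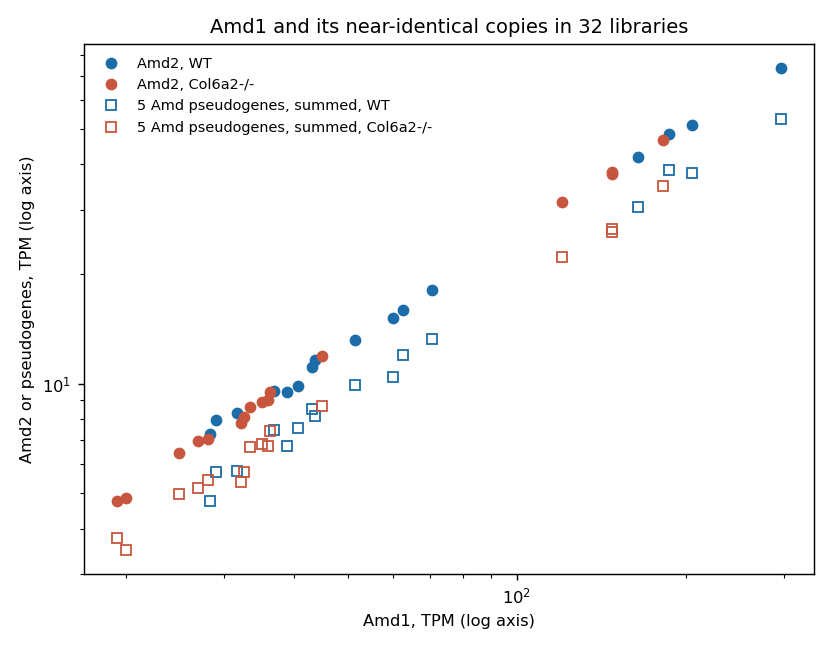
TPM of Amd2 (filled circles) and of 5 Amd pseudogenes summed (open squares) against TPM of Amd1 in the 32 libraries, on log axes, with WT in blue and Col6a2-/- in red. The points run parallel to Amd1 over its whole range, with Amd2 at 24.2 to 27.3% of Amd1.

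The clearest pattern among these genes was a sex difference in adult muscle: at 25 weeks Amd1, Amd2, Smox and Odc1 were higher in males than in females and Sat1 was lower. That is 4 members higher and 1 lower of 7, where 2.41% of the 12817 genes tested were called at 25 weeks (0.640% higher and 1.77% lower). With median-of-ratios size factors 55.5% of the calls were higher in place of 26.5%, and the 5 members stayed called in their directions. Over both ages, sex called 4 members, Amd1, Amd2, Smox and Odc1, all higher in males, against 3.05% of genes. Differences are on the log2(TPM + 1) scale with limma's Benjamini-Hochberg adjusted p over all genes tested, and a gene is called where that p is under 0.05. Not 1 of the 8 groups of markers for fibre, regenerating fibre, macrophage, fibroblast, fat, endothelium, tendon and red cells held a gene called by limma for sex at 25 weeks, and each list held 0 to 2 genes at an unadjusted p under 0.05. The tendon list had a median of -0.67 and the fat list one of -0.49, beside -0.08 for all genes tested. In WT alone limma likewise called none, but 4 of 4 tendon markers (median -1.14) and 4 of 7 fibroblast markers (median -0.49) had an unadjusted p under 0.05. The fat list had a median of -1.08 in WT, with 1 of 5 markers at an unadjusted p under 0.05 by limma. Their part in the sex differences was not tested.

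Amd1, which makes the aminopropyl donor for both synthases, had TPM values of 206, 164, 187 and 297 in the 4 WT males at 25 weeks, against 40.6, 43.0, 38.8 and 36.8 in the 4 WT females. In Col6a2-/- males of that age the values were 183, 148, 120 and 148 TPM, against 28.1, 36.2, 36.0 and 44.8 TPM in females. Every 25-week male lay above every 25-week female. The mean over both genotypes was 182 ± 53.6 TPM in males and 38.0 ± 5.16 TPM in females (SD, n = 8 each), a ratio of 4.77. On the log2 scale the difference was 2.19 (SE 0.115, limma adjusted p = 1.17e-14), ranking 8 of 12817 genes by p. With Amd1, Amd2 and the 5 pseudogenes summed to 1 feature it was 2.19 (limma adjusted p = 1.56e-14). The sex difference was called in each genotype taken alone, at 2.36 in WT and 2.02 in Col6a2-/- (limma adjusted p = 1.41e-11 and 6.92e-10), contrasts that were added after the group values had been seen and that called 1.22% and 0.554% of genes. The genotype-by-sex term at 25 weeks was not called for any of the 7 members by limma, none of them at an unadjusted p under 0.05 either, and was called for 0.0156% of genes; for Amd1 it was -0.34 with a 95% interval from -0.81 to 0.13.

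Smox, whose product converts spermine back to spermidine, lies on the plus strand at chr2:131491496-131525922 (ENSMUSG00000027333) and shared no 150-base window with another gene. At 25 weeks it stood at 33.6, 37.1, 44.6 and 50.4 TPM in WT males and at 9.60, 11.7, 12.4 and 6.60 TPM in WT females. Col6a2-/- males had 31.8, 27.3, 29.3 and 55.5 TPM, and Col6a2-/- females 6.59, 7.52, 10.6 and 8.96 TPM. Again no male overlapped a female, although male 4 of the Col6a2-/- group stood well above the other three. Males averaged 38.7 ± 10.3 TPM and females 9.24 ± 2.23 TPM (SD, n = 8 each), a ratio of 4.19 and a log2 difference of 1.94 (SE 0.179, limma adjusted p = 8.04e-09, rank 18 of 12817). Within genotypes the difference was 1.95 in WT (limma adjusted p = 1.2e-05) and 1.93 in Col6a2-/- (limma adjusted p = 1.58e-05).

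Odc1, the entry enzyme, lies on the plus strand at chr12:17544794-17551505 (ENSMUSG00000011179), where its span also holds Gm22748 on the same strand. Its TPM at 25 weeks was 22.2, 25.2, 27.4 and 20.9 in WT males against 14.4, 13.1, 15.8 and 12.4 in WT females. The Col6a2-/- males had 30.4, 19.8, 21.6 and 22.7 TPM and the Col6a2-/- females 12.8, 14.4, 13.5 and 15.1 TPM. The sexes did not overlap, but the step was smaller than for Amd1 or Smox: 23.8 ± 3.61 TPM against 13.9 ± 1.18 TPM (SD, n = 8 each), a log2 difference of 0.72 (SE 0.119, limma adjusted p = 0.00027). Amd1, Amd2, Smox and Odc1 were thus the 4 members whose 8 males and 8 females at 25 weeks were fully separated, which held for 0.835% of all genes tested.

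Sat1, the acetyltransferase on the X chromosome (ENSMUSG00000025283, minus strand, chrX:155213132-155216449), went the other way. At 25 weeks its TPM was 9.18, 7.41, 7.52 and 8.19 in WT males and 8.51, 13.6, 13.6 and 11.4 in WT females, and in Col6a2-/- it was 13.1, 6.78, 10.1 and 6.88 in males and 16.9, 14.1, 13.5 and 14.8 in females. The sexes overlapped in WT and not in Col6a2-/-, where 3.82% of genes did not overlap. Over both genotypes the log2 difference was -0.57 (SE 0.121, limma adjusted p = 0.00575), and it missed the threshold once TPM was rescaled without mitochondrial and Rn7s genes (-0.47, limma adjusted p = 0.0593). In either genotype alone it was not called.

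The synthases showed no called sex difference at 25 weeks. Srm (ENSMUSG00000006442, plus strand, chr4:148591503-148594993) was the least abundant member at 2.02 ± 0.431 TPM in males and 1.84 ± 0.342 TPM in females, with a log2 difference of 0.08 and a 95% interval from -0.10 to 0.27. Sms (ENSMUSG00000071708, minus strand, chrX:157443855-157492287) stood at 16.8 ± 2.57 and 15.6 ± 2.32 TPM, with an interval from -0.15 to 0.35. Those intervals leave out differences of the size seen for Amd1 and Smox.

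**Figure D2:**
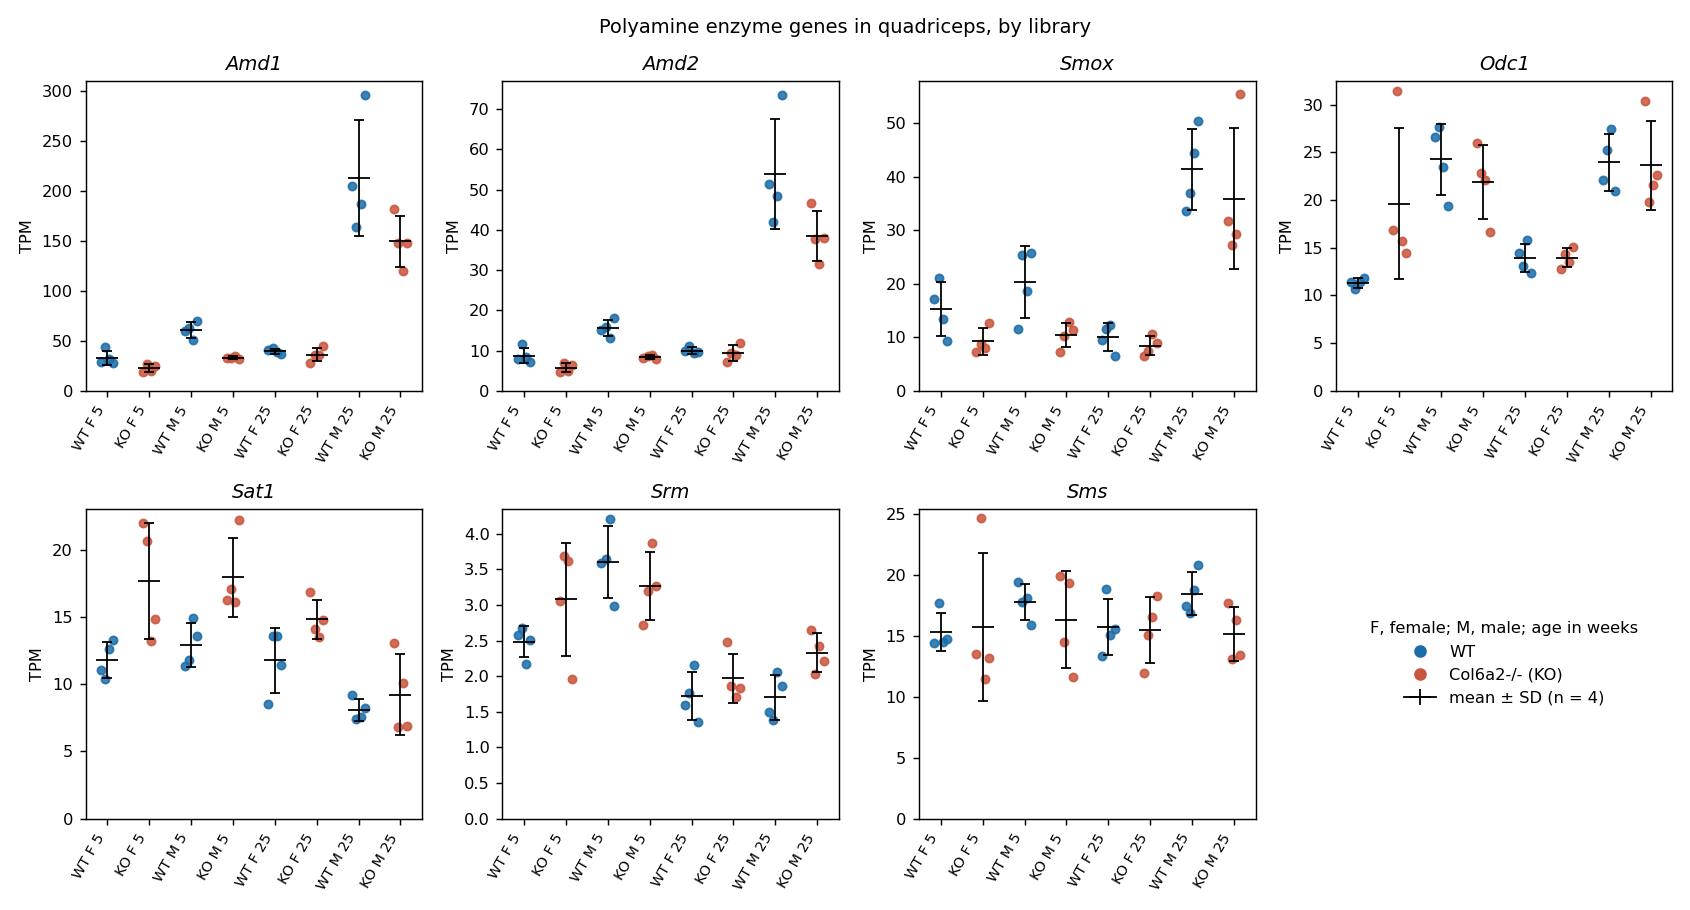
TPM of each of the 7 genes in every library, 1 point per mouse, by genotype, sex (F, M) and age in weeks, with mean ± SD (n = 4) as black bars and axes starting at 0. In the panels for Amd1, Amd2 and Smox the 25-week males sit above all other groups, while Sms is nearly level.

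In 5-week muscle 3 of the 7 members were called for sex, Amd1, Amd2 and Odc1, all higher in males, against 4.49% of genes called (4.14% higher). The median difference of all genes was 0.11 in TPM and -0.0007 with median-of-ratios size factors, and 92.2% and 69.7% of the calls were higher. Amd1 was 60.2, 62.6, 51.4 and 70.4 TPM in WT males and 29.0, 43.6, 31.7 and 28.3 TPM in WT females. In Col6a2-/- it was 32.5, 33.3, 35.0 and 32.1 TPM in males and 19.3, 27.0, 20.0 and 24.9 TPM in females. Males and females of 1 genotype did not overlap at this age either, which held for 17.6% of genes in WT and 1.54% in Col6a2-/-, though males of Col6a2-/- overlapped females of WT. The log2 difference over genotypes was 0.71 (SE 0.115, limma adjusted p = 0.000319), with 0.88 in WT (limma adjusted p = 0.0036, where 1.86% of genes were called) and 0.54 in Col6a2-/- (limma adjusted p = 0.275, where 0.0858% were).

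Odc1 at 5 weeks was 26.6, 27.7, 23.5 and 19.4 TPM in WT males and 11.4, 10.7, 11.4 and 11.9 TPM in WT females, a log2 difference of 1.02 (SE 0.169, limma adjusted p = 0.0016). In Col6a2-/- it was 26.0, 22.9, 22.1 and 16.7 TPM in males and 16.9, 31.4, 15.7 and 14.5 TPM in females, which overlapped (0.20, limma adjusted p = 0.839). Without Col6a2-/- female 2 the Col6a2-/- difference was 0.44 (limma adjusted p = 0.0577). Over both genotypes the Odc1 difference was 0.61 (SE 0.119, limma adjusted p = 0.00227), and 0.73 without that library (limma adjusted p = 5.48e-06). The 4 WT females were the lowest Odc1 libraries at 5 weeks. For Smox the 5-week difference was 0.27 with a 95% interval from -0.09 to 0.64, and for Sat1 it was 0.08 with an interval from -0.17 to 0.32. Other cells' markers were also higher in 5-week males: 1 of 10 macrophage markers was called by limma (8 at an unadjusted p under 0.05, median 0.44), with 2 of 5 endothelial markers and 1 of 7 fibroblast markers. Their part in the sex difference at 5 weeks was not tested.

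The change of the sex difference with age was tested directly. The sex-by-age term was called for 4 of 7 members against 3.43% of genes (0.242% higher and 3.19% lower; 7.05% of the calls were higher in TPM and 30.5% with median-of-ratios size factors). It stood at 1.48 for Amd1 (SE 0.162, limma adjusted p = 1.39e-06), 1.49 for Amd2 (limma adjusted p = 1.28e-06) and 1.67 for Smox (SE 0.254, limma adjusted p = 0.000363). For Sat1 the term was -0.65 (SE 0.171, limma adjusted p = 0.0343), a call lost in 21 of 47 other fits. Odc1 had a term of 0.11 (95% interval -0.24 to 0.45), which was -0.01 without Col6a2-/- female 2 at 5 weeks and 0.35 with median-of-ratios size factors, and was not called in either (limma adjusted p = 0.944 and 0.102). Marker lists of other cells had negative terms, as Sat1 did. By limma 1 of 10 macrophage markers was called (9 at an unadjusted p under 0.05, median -0.75), 1 of 7 fibroblast markers (6 unadjusted, median -0.79), 1 of 8 markers of regenerating or denervated fibres (5 unadjusted, median -0.47) and 2 of 5 endothelial markers (3 unadjusted, median -0.44). The median over all genes tested was -0.19, and the part of these cells in the sex-by-age terms was not tested.

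Seen along age, the rise of Amd1 was large in males. WT males went from 61.1 ± 7.82 TPM at 5 weeks to 213 ± 58.0 TPM at 25 weeks (SD, n = 4 each), a log2 change of 1.76 (limma adjusted p = 9.28e-09), and WT females from 33.2 ± 7.13 to 39.8 ± 2.64 TPM, a change of 0.28 with a 95% interval from -0.06 to 0.61. Col6a2-/- males rose from 33.3 ± 1.28 to 150 ± 25.4 TPM (2.12, limma adjusted p = 2.79e-10) and Col6a2-/- females from 22.8 ± 3.72 to 36.3 ± 6.84 TPM (0.64, limma adjusted p = 0.0125, a call lost in 3 of 47 other fits). In WT the male and female changes differed by 1.48 (SE 0.23, limma adjusted p = 0.000755). These age contrasts within sex were also added after the values had been seen. They called 28.6% of genes in WT males, 1.84% in WT females, 25.9% in Col6a2-/- males and 7.50% in Col6a2-/- females, and 2.53% for the difference between the WT changes.

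Smox changed in opposite directions by sex in WT means: 20.4 ± 6.77 to 41.4 ± 7.55 TPM in males, a called rise of 1.04 (limma adjusted p = 0.00313), and 15.3 ± 5.02 to 10.1 ± 2.59 TPM in females, a difference of -0.54 that was not called (limma adjusted p = 0.372). The difference between those changes was 1.57 (SE 0.359, limma adjusted p = 0.0237). That call was lost without any filter on low values (limma adjusted p = 0.0645) and without WT female 1, WT female 2 or WT male 1 at 5 weeks (limma adjusted p = 0.0572, 0.0558 and 0.0596). In Col6a2-/- males Smox rose from 10.5 ± 2.32 to 36.0 ± 13.1 TPM (1.66, limma adjusted p = 2.26e-05), while in Col6a2-/- females it was 9.23 ± 2.44 and 8.42 ± 1.76 TPM.

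With the sexes pooled, age called 3 of 7 members in WT (Amd1 1.02 and Amd2 0.94 higher, Srm -0.57 lower), where 19.8% of genes were called (4.47% higher and 15.3% lower). In Col6a2-/- it called 5 of 7: Amd1 at 1.38, Amd2 at 1.34 and Smox at 0.77 were higher with age, and Sat1 at -0.57 and Srm at -0.40 were lower, where 34.2% were called (5.41% higher and 28.8% lower). Most called genes fell with age in these TPM values, so the falls of Srm and Sat1 went with the general direction and the rises of Amd1 and Smox went against it. That direction is itself a matter of scaling: 22.6% of the calls for age in WT were higher in TPM, against 46.7% with median-of-ratios size factors, and in Col6a2-/- 15.8% against 47.6%. Under those size factors Srm was still lower with age in WT (-0.50, limma adjusted p = 2.5e-05). Markers of other cells were also called lower with age by limma in these pooled contrasts. In WT these were 4 of 8 regenerating or denervated fibre, 4 of 7 fibroblast, 2 of 5 endothelial and 1 of 10 macrophage markers. In Col6a2-/- the same lists held 7 of 8, 4 of 7, 3 of 5 and 9 of 10. Of 4 tendon markers 2 were lower in each genotype. The part of these cells was not tested.

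In WT, with the sexes pooled, the only member called lower with age was Srm, the spermidine synthase gene. In WT it ranged from 2.18 to 4.21 TPM with a median of 2.83 at 5 weeks, and from 1.36 to 2.15 TPM with a median of 1.67 at 25 weeks (n = 8 each). The ages did not overlap, and 2.30% of genes were likewise lower without overlap, and the log2 change of -0.57 had an SE of 0.09 (limma adjusted p = 4.25e-05). In Col6a2-/- the range went from 1.96 to 3.87 TPM at 5 weeks to 1.70 to 2.65 TPM at 25 weeks, with overlap (-0.40, limma adjusted p = 0.00118). Under other scalings the Col6a2-/- change was as small as -0.22 (quantile normalization, limma adjusted p = 0.0261), and it was not called once scaled to fibre markers (-0.26, limma adjusted p = 0.0589), where the WT change was -0.36 (limma adjusted p = 0.0075). Because Srm stood close to the pseudocount of 1 TPM, its changes on this scale understate the TPM ratios, which were 0.562 in WT and 0.678 in Col6a2-/-.

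Sat1 fell with age in males: from 12.9 ± 1.65 to 8.08 ± 0.814 TPM in WT (-0.61, limma adjusted p = 0.00851) and from 17.9 ± 2.91 to 9.21 ± 3.01 TPM in Col6a2-/- (-0.92, limma adjusted p = 0.000266). In females the changes were -0.02 (95% interval -0.37 to 0.33) and -0.22 (interval -0.57 to 0.13). The WT male call was lost under 5 other scalings, among them median-of-ratios size factors (-0.35, limma adjusted p = 0.13) and scaling to fibre markers (-0.22, limma adjusted p = 0.41). The male-female difference of the WT changes was not called (-0.59, limma adjusted p = 0.128). Marker lists of other cells moved with age as well, and not in males alone. In WT males 6 of 10 macrophage, 4 of 8 regenerating or denervated fibre and 6 of 7 fibroblast markers fell. So did 3 of 5 endothelial and 3 of 4 tendon markers. In Col6a2-/- males 9 of 10 macrophage, 7 of 8 regenerating or denervated fibre and 4 of 7 fibroblast markers fell. So did 2 of 5 endothelial and 1 of 4 tendon markers. In Col6a2-/- females, where Amd1 rose, 7 of 8 regenerating or denervated fibre and 4 of 7 fibroblast markers fell. There 1 of 5 endothelial, 1 of 4 tendon and 0 of 10 macrophage markers fell. In WT females 3 of 7 fibroblast markers fell. The part of these cells in the age differences was not tested.

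**Figure D3:**
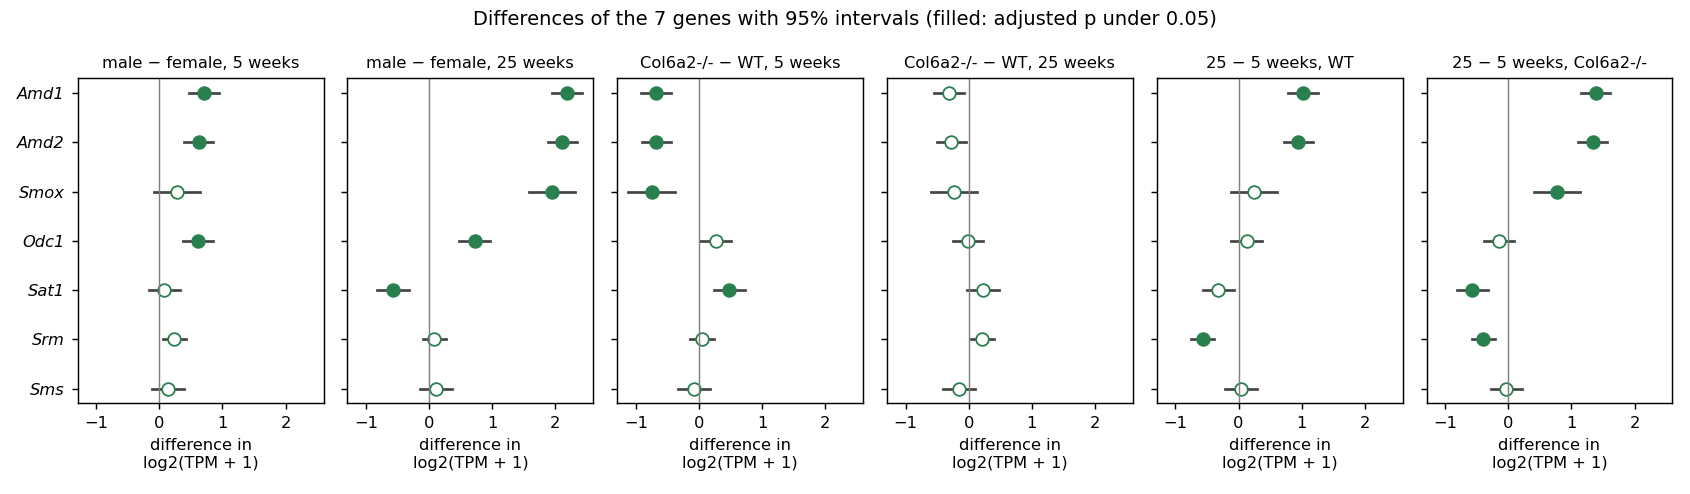
Differences in log2(TPM + 1) for the 7 genes in 6 comparisons, as points with 95% intervals. Filled points passed an adjusted p under 0.05; the points for Amd1, Amd2 and Smox lie near 2 for sex at 25 weeks and below 0 for genotype at 5 weeks.

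Loss of Col6a2 was compared with WT at each age. At 5 weeks Amd1, Amd2 and Smox were lower in Col6a2-/- muscle and Sat1 was higher, so that 3 members fell and 1 rose of 7. Of all genes tested 25.4% were called in this comparison, 23.2% higher and 2.14% lower, so the rise of Sat1 is in the common direction and the falls are in the rarer one. The median difference over the genes tested was 0.15 in TPM and 0.0006 with median-of-ratios size factors, where 52.3% of calls were higher in place of 91.6%. With those size factors the differences were -0.87 for Amd1, -0.84 for Amd2 and -0.92 for Smox (limma adjusted p = 1.71e-06, 1.66e-06 and 0.00126). Under them Sat1 was no longer called (0.30, limma adjusted p = 0.0753) and Sms was called lower (-0.26, limma adjusted p = 0.0148).

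Amd1 at 5 weeks stood between 28.3 and 70.4 TPM with a median of 47.5 in WT and between 19.3 and 35.0 TPM with a median of 29.5 in Col6a2-/- (n = 8 each). With the sexes pooled the genotypes overlapped; within each sex they did not, as the values above show, which held for 10.9% of genes in males and 9.19% in females. The log2 difference was -0.68 (SE 0.115, limma adjusted p = 7.91e-05), with -0.85 in males (limma adjusted p = 0.00126) and -0.51 in females (limma adjusted p = 0.0363). The male call was kept in all 47 other fits, and the female call was lost in 7 of 47, among them the fit without WT female 2 (-0.38, limma adjusted p = 0.14). The genotype-by-sex term for Amd1, over both ages, was -0.34 with a 95% interval from -0.67 to -0.01 and was not called (limma adjusted p = 1).

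Smox at 5 weeks was 11.5, 25.5, 18.6 and 25.8 TPM in WT males and 7.35, 10.2, 12.8 and 11.4 TPM in Col6a2-/- males. Among females it was 17.2, 21.1, 13.5 and 9.33 TPM in WT and 7.34, 8.85, 7.97 and 12.8 TPM in Col6a2-/-. WT male 1 and WT female 4 lay within the Col6a2-/- range and the other WT libraries above it. The pooled difference was -0.75 (SE 0.179, limma adjusted p = 0.0032). By sex it was -0.86 in males (limma adjusted p = 0.0431) and -0.64 in females (limma adjusted p = 0.09), and the male call was lost in 9 of 47 other fits.

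Sat1 at 5 weeks was 11.4, 11.8, 14.9 and 13.6 TPM in WT males and 16.3, 17.1, 16.1 and 22.2 TPM in Col6a2-/- males, with no overlap, as for 10.9% of genes. The male difference was nevertheless not called (0.44, limma adjusted p = 0.143). In females it was 11.1, 10.4, 12.6 and 13.3 TPM in WT and 22.0, 20.7, 13.2 and 14.9 TPM in Col6a2-/-, where 1 library of the Col6a2-/- group fell just under the highest WT value. The female difference was called (0.52, limma adjusted p = 0.0439), a call lost in 13 of 47 other fits. The pooled difference was 0.48 (SE 0.121, limma adjusted p = 0.00503).

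Odc1 was not called for genotype at 5 weeks over both sexes (0.26, SE 0.119, limma adjusted p = 0.102). It was called higher in 3 of 47 other fits: scaled to muscle fibre markers, and without Col6a2-/- female 4 or Col6a2-/- male 4 at 5 weeks. Those fits called 77.7, 37.1 and 31.7% of all genes. In females Odc1 was called in the main fit, at 11.3 ± 0.509 TPM in WT and 19.6 ± 7.93 TPM in Col6a2-/- (SD, n = 4 each). The female difference was 0.67 (limma adjusted p = 0.0101). Without Col6a2-/- female 2 at 31.4 TPM the difference was 0.43 (limma adjusted p = 0.0816). In males the means were 24.3 ± 3.73 and 21.9 ± 3.88 TPM, a difference of -0.15 with an interval from -0.49 to 0.20. By sex, 4 of 7 members were called in 5-week females against 12.9% of genes and 3 of 7 in 5-week males against 5.03%; without Col6a2-/- female 2 the female count was 2, against 3.59% of genes. It was 1 without WT female 1, WT female 2 or Col6a2-/- female 1, against 5.89, 7.45 and 5.28% of genes.

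Srm and Sms were not called for genotype at 5 weeks. Srm differed by 0.05 (95% interval -0.14 to 0.23) and Sms by -0.08 (-0.34 to 0.17), or -0.20 without Col6a2-/- female 2 (limma adjusted p = 0.192). The Sms value depended on the scaling: it was called lower with median-of-ratios size factors (-0.26, limma adjusted p = 0.0148) and quantile normalization (-0.23, limma adjusted p = 0.0435), and called higher once scaled to muscle fibre markers (0.18, limma adjusted p = 0.0286). For Sms, 26.7% of the 150-base windows also occurred in Sms-ps, which stood at 4.61 to 8.48% of the Sms level.

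Markers of other cells moved with genotype at 5 weeks. All 10 macrophage markers were called higher in Col6a2-/- with a median difference of 1.22, and their summed level was 72.6 to 123 TPM in WT and 111 to 386 TPM in Col6a2-/- libraries of that age. Of 8 markers of regenerating or denervated fibres 7 were higher (109.7 to 157 TPM summed in WT, 111 to 246 in Col6a2-/-), and 4 of 7 fibroblast and 3 of 5 endothelial markers were higher (medians 0.32 and 0.27). Of the 8 fibre markers 4 were lower, with a median of -0.24. After TPM was scaled to the summed fibre markers, a choice made after seeing the data, the genotype difference of Amd1 was -0.40 (limma adjusted p = 0.000367) and that of Smox -0.48 (limma adjusted p = 0.0192). All 7 members were called on that scale, where 77.7% of all genes were. This scaling multiplies all genes of a library alike, and the part of the other cells in the genotype differences of the members was not tested.

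At 25 weeks no member was called for genotype, against 4.70% of genes by limma; at an unadjusted p under 0.05 it listed 3 members (Amd1, Amd2 and Srm) and 2469 genes in all. Amd1 was 126.5 ± 100 TPM in WT and 93.0 ± 63.0 TPM in Col6a2-/- over both sexes (SD, n = 8 each, males and females together), and its log2 difference was -0.32 with a 95% interval from -0.55 to -0.08 (limma adjusted p = 0.113). The male means were 213 and 150 TPM (-0.49, limma adjusted p = 0.0924) and the female means 39.8 and 36.3 TPM (-0.15, limma adjusted p = 1), with no member called in either sex, where 3.03% of genes were called in males and 0.00780% in females. Amd1 crossed the threshold in this comparison with median-of-ratios size factors (-0.44, limma adjusted p = 0.0132), quantile normalization (-0.37, limma adjusted p = 0.0494), the 100 most abundant genes left out (-0.39, limma adjusted p = 0.0233) and array quality weights (-0.33, limma adjusted p = 0.0193). The share of all genes called rose under the same settings, from 4.70% to 10.0, 6.62, 8.46 and 15.3%. Markers of other cells were higher in Col6a2-/- at this age too: limma called 8 of 10 macrophage markers (median 0.79), 4 of 7 fibroblast markers (median 0.63) and 1 of 8 markers of regenerating or denervated fibres. Their part in the 25-week values was not tested.

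The genotype differences at the 2 ages were not shown to differ. By limma no member was called for genotype by age, where 0.492% of genes were and 3 members had an unadjusted p under 0.05, and the term was 0.37 for Amd1 (95% interval 0.03 to 0.70) and 0.52 for Smox (0.004 to 1.04). For genotype by sex no member was called against 0.0156% of genes, and 2 members, Amd1 and Odc1, had an unadjusted p under 0.05.

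Within groups, some members moved together from mouse to mouse. Correlations were taken over the 32 libraries on deviations from group means, for 21 pairs, and 5 pairs had a Benjamini-Hochberg adjusted permutation p under 0.05 by Pearson's r. Of these 5, only Amd1 with Amd2 and Amd2 with Smox also had one under 0.05 by Spearman's rho. Amd1 and Amd2 gave r = 0.992 and share most of their sequence. Amd2 and Smox gave r = 0.476 and Spearman's rho = 0.532 (permutation p = 0.011 and 0.0056, adjusted 0.048 and 0.039). Without the 2 libraries farthest from the median deviation of Amd2, r was 0.392. In each pair the 2 libraries left out were chosen by the first-named gene alone. Amd1 and Smox, not among the 5 pairs, passed by rho and not by r: r was 0.464 and rho 0.555 (permutation p = 0.015 and 0.0036, adjusted 0.053 and 0.038), and r was 0.377 without 2 libraries. Odc1 and Sms gave r = 0.689 and rho = 0.551 (permutation p = 0.007 and 0.01, adjusted 0.037 and 0.055), and r was 0.491 without 2 libraries; Col6a2-/- female 2 at 5 weeks was the highest of its group for both. Amd1 and Sms gave r = 0.492 and rho = 0.413 (permutation p = 0.0016 and 0.023, adjusted 0.011 and 0.098), with r = 0.465 without 2 libraries, and Amd2 and Sms gave r = 0.526 and rho = 0.401 (permutation p = 0.00084 and 0.03, adjusted 0.0088 and 0.1), with r = 0.504 without 2. All these values share libraries and their scaling, and the share of other gene pairs that would pass was not measured. Sat1 and Srm were in no pair past the threshold.

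**Figure D4:**
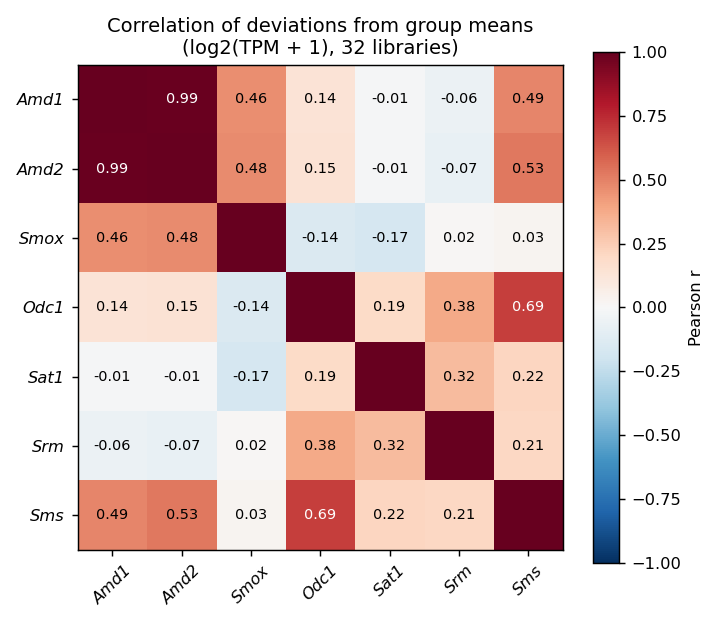
Pearson's r between the 7 genes, from deviations of log2(TPM + 1) from the group means in 32 libraries, with red for positive and blue for negative values. Beside the near-identical Amd1 and Amd2, the pair with the highest r over all 32 libraries is Odc1 and Sms at 0.69. Without the 2 libraries farthest from the median of Odc1, r for this pair is 0.491. For Amd2 and Sms it is 0.504 without the 2 farthest from the median of Amd2. These values need not rest on the same libraries.

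Genes whose deviations were most like each member's are given as a description over the same 32 libraries. They were ranked by Pearson's r, and each is given with r and then Spearman's rho. For Smox they were C030006K11Rik (0.681 and 0.665), Spns2 (0.654 and 0.699), a sphingosine-phosphate transporter, and Wfikkn2 (0.652 and 0.662), a secreted protein that binds myostatin. For Odc1, with 1 library far above its group, they were Mak16 (0.878 and 0.71), Ubxn4 (0.852 and 0.72) and Stx8 (0.851 and 0.735). Sms went with Tmod1 (0.95 and 0.897), which caps thin filaments, Ppp1r14c (0.933 and 0.886) and Vps37a (0.933 and 0.876). Sat1 was nearest to Taf9 (0.709 and 0.545), Cyth3 (0.683 and 0.681) and Vcam1 (0.641 and 0.523), an adhesion molecule. Srm was nearest to CAAA01118383.1 (0.798 and 0.793), Aspscr1 (0.784 and 0.802) and Jund (0.776 and 0.706). For Amd1 and Amd2 the nearest genes were each other, Amd-ps4 and Amd-ps3.

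The wider pathway was read from 6 lists of 39 genes, which hold the antizymes, the arginine and ornithine supply, S-adenosylmethionine supply and salvage, the hypusine pathway, transport, and the remaining catabolic enzymes. Of the 39 genes 23 were tested. For sex at 25 weeks limma called 0 of 23 (2 at an unadjusted p under 0.05), against 2.41% of all genes, with a median difference of -0.06 beside -0.08 for all genes tested. Sex-by-age likewise called 0 of 23 (4 unadjusted), against 3.43%. For sex at 5 weeks 1 of 23 was called, Gatm, at 0.70 (limma adjusted p = 0.0478), a share near the 4.49% of all genes. Over both ages 1 of 23, from the arginine and ornithine supply, was called lower in males, against 3.05% of all genes called.

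For genotype at 5 weeks 3 of 23 were higher and 0 lower, with a median of 0.11 beside 0.15 for all genes. Of all genes tested 23.2% were called higher and 2.14% lower, so the share of this list called higher was below that of all genes, and the 3 genes are given as single values. Atp13a3, a polyamine-transporting ATPase, was 6.43 to 9.75 TPM in WT and 10.3 to 30.3 TPM in Col6a2-/- at 5 weeks, without overlap, which held for 1.30% of genes (1.15, SE 0.139, limma adjusted p = 7.68e-07). Gatm, which takes arginine into creatine synthesis, was 3.56 ± 1.47 and 6.68 ± 3.25 TPM (0.70, limma adjusted p = 0.0144). Sat2, a paralog of Sat1, was 1.58 ± 0.189 and 2.13 ± 0.559 TPM (0.26, limma adjusted p = 0.0266). Among the synthesis regulators, antizyme (Oaz1, Oaz2) and antizyme inhibitor (Azin1), 0 of 3 tested genes were called by limma, and 0 at an unadjusted p under 0.05. At 25 weeks 0 of 23 were called for genotype by limma (2 unadjusted), against 4.70% of all genes. For genotype by age limma called 1 of 23, a transport gene, with a negative term, against 0.492% of all genes.

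With age, 2 of 23 were higher and 2 lower in WT, and 1 was higher and 8 lower in Col6a2-/-. The WT background over all genes was 4.47% called higher, with 15.3% called lower. For Col6a2-/- it was 5.41% and 28.8%, so the 8 that fell make up a share near that of all genes. The medians were -0.13 and -0.17 beside -0.08 and -0.14 for all genes tested. Adi1, an enzyme of methionine salvage, was higher with age in both genotypes (0.47 and 0.57, limma adjusted p = 0.000607 and 2.91e-05). Azin1, which frees ornithine decarboxylase from antizyme, was lower in both (-0.50 and -0.43, limma adjusted p = 0.00505 and 0.00881), as was Mat2a, which makes S-adenosylmethionine (-0.40 and -0.55, limma adjusted p = 0.0337 and 0.00227). Atp13a3 was lower with age in Col6a2-/- (-1.20, limma adjusted p = 1.58e-07).

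**Figure D5:**
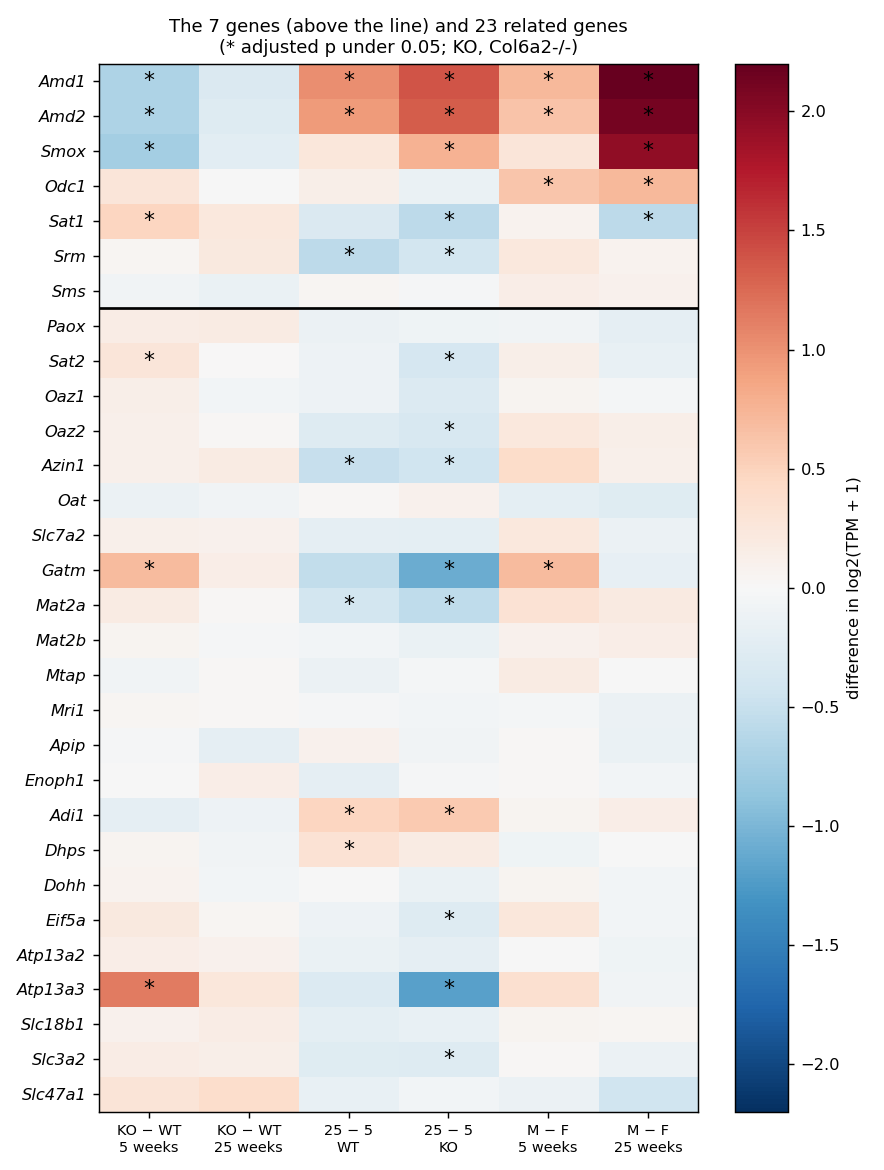
Differences in log2(TPM + 1) for the 7 genes, above the line, and 23 related genes in 6 comparisons; red is higher and blue lower in the first-named group, and a star marks an adjusted p under 0.05. In the column for sex at 25 weeks 5 of the 7 genes carry a star and none of the 23 related genes does.

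The start regions of the members were searched for 2 letter patterns, since several members moved together with sex. RefSeq windows of 300 bases on GRCm38.p6, from 250 before the start to 50 after it, were present for 6 of 7 members (Srm was not matched). The E-box CACGTG, which reads the same on both strands, was found in 7.15% of the 32851 windows of the table, and among the members in 1 of the windows of Sms. AGAACA, 1 arm of the steroid receptor element, or TGTTCT on the other strand, was found in 19% of all windows and among the members in Sat1. Neither pattern was in the windows of Amd1, Amd2, Smox or Odc1, which says only that these letters are not in those 300 bases. The stretches that hold the matches, chrX:155216608-155216667 for Sat1 and chrX:157492451-157492510 for Sms, both minus strand, are given with the match in capitals.
Sat1: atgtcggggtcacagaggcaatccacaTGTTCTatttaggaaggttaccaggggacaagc
Sms: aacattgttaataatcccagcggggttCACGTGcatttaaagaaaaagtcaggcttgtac
The Sat1 match began at position -191 and the Sms match at position -196, counted from the start.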

How the data were processed

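RNA from quadriceps of 32 mice was sequenced as paired 150-base reads; the labels list each sample as its own mouse. The authors deposited 1 gene table per library with TPM, FPKM and coverage per gene, per the file headers, and the submitters' processing notes name Trimmomatic, HISAT2, SAMtools, StringTie and the builds GRCm38 and mm10, with no versions. The tables hold no counts and the labels give only a target depth, so the depth is unknown; coverage divided by FPKM, in the deposited tables, spanned 6.78 to 13.7 across libraries. How reads matching several genes were assigned is not given in the sources used here, nor is strand.

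TPM was summed per gene identifier. Genes that reached 1 TPM in 4 or more libraries were tested with limma 3.58.1 (R 4.3.3) on log2(TPM + 1), with 8 group means, a trended variance and Benjamini-Hochberg adjustment over 12817 genes at 0.05. The 14 planned contrasts were joined by 10 added after group values were seen. The fit was tested on simulated data. Alternatives changed the normalization, the pseudocount, the filter, the unit (FPKM), the samples or the weights, or left out 1 library. Correlations used 100000 permutations (scipy 1.17.1), and sequence windows were compared on GENCODE M21 transcripts, where 53620 of 53801 identifiers matched. The members and lists were chosen with earlier results of these data known. All members are named; from the pathway lists, every gene called for genotype at either age; and the 3 genes most correlated with each member. Age-related pathway genes, Gatm for sex and the antizymes were named after their values were seen.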

Additional observations from a re-analysis of the deposited data

Results flagged for a closer look

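Single libraries stood apart from their group by Dixon's test in 5 of 56 groups of 4, where chance flags about 1 in 20. They were Smox in a Col6a2-/- male at 25 weeks (55.49 TPM), Odc1 and Sms in the same Col6a2-/- female at 5 weeks (31.43 and 24.66 TPM), Sat1 in a Col6a2-/- male at 5 weeks (22.23 TPM) and Sms in a WT female at 5 weeks (17.65 TPM).

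The sex difference itself differed between the ages, by the test of the sex-by-age term, for Amd1 (1.482), Amd2 (1.485), Smox (1.669) and Sat1 (-0.65), in log2(TPM + 1). The Sat1 call was lost in 21 of 47 other fits, with limma adjusted p up to 0.217. In WT alone the change with age differed between the sexes for Amd1 (1.483), Amd2 (1.514) and Smox (1.572), the Smox call being lost in 4 of 47 other fits. The Amd1 and Amd2 values come largely from the same sequence.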

How the results depend on the processing

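Limits: with 4 mice a group and no counts, the counting error of single values is unknown, and TPM shares depend on the mitochondrial and Rn7s genes. The number of members called moved most for genotype. At 25 weeks it was 0, where 4.70% of all genes were called, and became 3 with median-of-ratios size factors, 1 with quantile normalization, 2 without the 100 most abundant genes, 2 with array quality weights and 2 scaled to muscle fibre markers, where 10.0, 6.62, 8.46, 15.3 and 56.8% of genes were called. In 25-week males, from 0 (3.03% of genes), the same settings gave 3, 1, 2, 3 and 1, against 6.31, 3.71, 5.53, 19.0 and 30.6% of genes. In 25-week females fibre scaling gave 1, against 10.7% of genes in place of 0.00780%. At 5 weeks fibre scaling gave 7 in place of 4, with 77.7% of genes called in place of 25.4%. Sms turned from -0.08 to 0.18. In 5-week females the count was 4 (12.9% of genes), with 1 under no filter (4.30%) and 0 with only the compared groups fitted (0.946%). For age in WT fibre scaling gave 6 in place of 3, against 33.8% of genes in place of 19.8%. Why the counts moved was not tested.

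Leaving out 1 library at a time gave 4 to 5 members for genotype at 5 weeks, 1 to 6 in 5-week females, 2 to 3 in 5-week males, 3 to 4 for age in WT, 5 for age in Col6a2-/-, 4 to 5 for sex, 3 to 4 for sex at 5 weeks, 5 for sex at 25 weeks and 3 to 4 for sex by age, and 0 for the others. The share of all genes moved too. For genotype at 5 weeks it was 17.4 to 37.1%, and the count of 5 came at 37.1 and 31.7%. For age in WT it was 16.5 to 23.7%, and the count of 4 came at 20.1%. Full-fit shares were 5.03% for 5-week males, 34.2% for age in Col6a2-/-, 3.05% for sex, 4.49% for sex at 5 weeks, 2.41% for sex at 25 weeks and 3.43% for sex by age. In 5-week females the count was 1 without WT 1, WT 2 or Col6a2-/- 1 (5.89, 7.45 and 5.28% of genes), 2 without WT 3, Col6a2-/- 2 or Col6a2-/- 3 (8.40, 3.59 and 10.4%) and 6 without Col6a2-/- 4 (30.2%).

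Same-numbered samples did not deviate together (median correlation 0.0322 over 112 pairs, 35 above 0.1), so the numbers do not pair the mice. With the replicate block the count in 5-week females was 3 in place of 4, against 13.3% of genes in place of 12.9%. Sat1 then had a limma adjusted p of 0.0526, and no other member's call changed.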
